A study of Rattus with 18 samples.

Results

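The genes of the constitutive proteasome, the protease of cytosol and nucleus that degrades proteins tagged with ubiquitin, were followed in rat glomeruli over the 5 days after an antibody against Thy1. They were chosen by name: every gene of the array called Psma, Psmb, Psmc or Psmd with a number, without the immunoproteasome subunits Psmb8, Psmb9 and Psmb10. This gave 36 genes, of which 34 passed the filter on dim probes, among 23201 genes and transcripts tested. The other two, Psma8 and Psmb11, were not well above background on any of the 18 arrays. Psma8 is known as an alpha subunit of the testis and Psmb11 as a beta subunit of the thymus.

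Each of the 18 Agilent arrays was hybridised with 1 Cy3-labelled sample of glomerular RNA. All animals were SD rats of 200 g. The day 1, 2, 3, 4 and 5 groups came from 30 rats injected with the anti-Thy1 antibody and killed on that day, and the day 0 group from 6 rats injected with saline. No source used here states the age or sex of the rats. Glomeruli of 6 rats were taken at each time point, 3 from each rat, and 3 arrays were made per time point. It is not stated which of the rats contributed to a given array, so the p-values measure the spread between arrays, part of which may be technical. Anti-Thy1 nephritis is a rat model in which an antibody injures the mesangial cells, which support the capillaries from within the glomerular tuft.

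A proteasome has a barrel-shaped core and a cap at one or both of its ends. The core stacks rings of alpha subunits (Psma), which form the gate, around rings of beta subunits (Psmb), of which Psmb5, Psmb6 and Psmb7 carry the active sites. The cap has a base, with a ring of ATPases (Psmc) that unfolds the substrate, and a lid (most Psmd genes), and it recognises ubiquitin and removes it. In cells exposed to interferon gamma, Psmb8, Psmb9 and Psmb10 replace the constitutive active subunits. Of the members, 8 were alpha subunits, 8 beta subunits, 6 ATPases, 11 other cap subunits and 3 assembly chaperones of the cap base (Psmd5, Psmd9, Psmd10), which leave the finished complex.

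A level is given as log2 of the processed signal minus the array's 75th percentile, so that 0 is that percentile. A change is the mean level of a day minus that of day 0, with the standard error (SE) of the limma fit and n = 3 arrays per group. A gene passed the test where its adjusted p (Benjamini-Hochberg over all 23201 genes) was under 0.05. In bulk RNA, fewer cells of a type and less RNA per cell cannot be told apart, and this holds for every change below. The 75th percentile of the signal was 180.7 to 229.2 on the day 0 arrays, against 251.9 to 452.4 on the other 15. An array had 22640 to 28528 probes well above background, and no spot was saturated. The arrays of days 2 and 4 had a scan day of their own, so scan day and group cannot be told apart in their changes against day 0. The 3 controls lay on slide 1 with replicate 1 of day 1, and no array of days 2 to 5 lay on that slide. Slide and group therefore cannot be told apart in the changes of days 2 to 5 against day 0. The podocyte markers Nphs1, Podxl, Synpo and Wt1 were well above background on all 18 arrays, and so were the tubule markers on the list, such as Slc34a1, Lrp2 and Umod. The mesangial markers Thy1 and Itga8 were well above background on 17 arrays each.

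Each gene is read through its brightest probe, a stretch of 60 bases. The probes below, printed 5′ to 3′, are those of Psmb7 and Psmd14, which were higher on all 5 days under every scaling tried, of Psmd13, which was lower on all 5 days, and of Psmd6, which differed between days 4 and 5. Their genomic spans in build rn4, as the files give them, are longer than 60 bases, so that each of these probes is split over a gap in the genome. No rn4 gene annotation was used here, and exon numbers are therefore not given.
Psmb7, chr3:18413231-18433105, minus strand: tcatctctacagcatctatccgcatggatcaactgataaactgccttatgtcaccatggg
Psmd14, chr3:43696292-43699023, minus strand: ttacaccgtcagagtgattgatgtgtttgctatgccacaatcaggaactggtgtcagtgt
Psmd13, chr1:201048034-201048330, plus strand: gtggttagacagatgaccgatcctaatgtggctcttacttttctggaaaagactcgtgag
Psmd6, chr15:12660117-12660290, plus strand: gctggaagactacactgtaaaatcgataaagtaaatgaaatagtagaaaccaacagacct

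Most constitutive proteasome genes had higher signal after the antibody than in the saline controls on every day. On day 1, 27 of 34 members were higher and 1 was lower, where 19.2% of all genes were higher and 20.7% lower. On day 2, 22 were higher and 2 lower, against 20.8% and 25.1% of all genes. On day 3, 29 were higher and 1 lower, against 21.7% and 26%. On day 4, 31 were higher and 1 lower, against 25.6% and 26.7%. On day 5, 30 were higher and 1 lower, against 20.9% and 23.4%. The median change of the members was 0.67, 0.54, 0.76, 0.89 and 0.68 on days 1 to 5, and that of all genes 0.06, 0.04, -0.02, 0.05 and 0.06. By the moderated F-test over the 6 days 32 of 34 members changed, where 53% of all genes did, and the exceptions were Psmd11 and Psmd3.

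Of the 34 members, 20 were higher on all 5 days, where 9.28% of all genes were, and 19 had their highest later mean on day 4, where 24.1% of all genes did. The counts of members higher than day 0 depend on 1 array and on the scaling between arrays. The count of 19 does not involve the controls, but the direction of day 4 against days 3 and 5 turned with the scaling (below). Without replicate 4 of day 0, on which the members averaged 2.83 against 3.28 and 3.23 on the other controls, 21, 12, 25, 28 and 25 members were higher on days 1 to 5, where 8.65%, 11.9%, 15.4%, 18.1% and 12.2% of all genes were. In that fit 11 members, in place of 20, were higher on all 5 days, and the share of all genes for this count is not given here. The members are also bright: 29 of 34 lay in the brightest of 5 equal bins of all genes. That bin as a whole had median changes of 0.43, 0.35, 0.36, 0.52 and 0.48, with 39.1%, 34.1%, 40.2%, 49.8% and 45.7% of its genes higher. The part of the scaling, of the low signal of the controls and of brightness in the members' change was not tested.

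**Figure D1:**
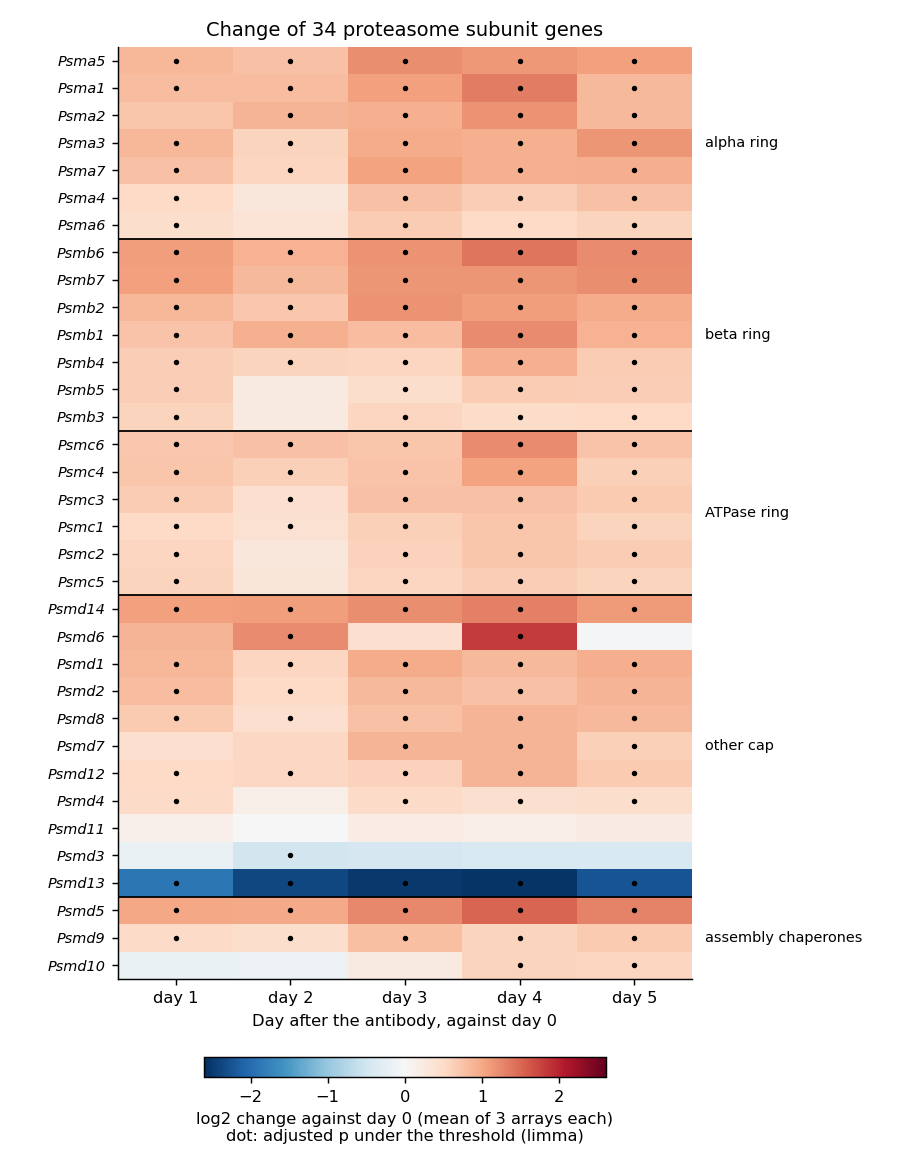
Colour gives the log2 change of each of the 34 tested members (rows, by class and mean change) against day 0 on days 1 to 5 (columns), from 3 arrays per group, and a dot marks an adjusted p under 0.05. Most cells are red and dotted, Psmd13 is blue on all 5 days, and Psmd6 is dark red on day 4 (1.83) and near 0 on day 5 (-0.03).

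All 7 alpha ring genes tested were higher on days 3, 4 and 5, 6 of 7 on day 1 and 5 of 7 on day 2, with medians of 0.76, 0.59, 0.97, 0.93 and 0.84 on days 1 to 5. The alpha subunits form the outer rings of the core, and their tails close the gate through which a substrate enters. Psma5 had the highest mean change of the class. Its level by replicate was 3.90, 3.13 and 3.83 on day 0, 4.43, 4.64 and 4.38 on day 1, 4.27, 4.48 and 4.43 on day 2, 4.92, 4.90 and 4.68 on day 3, 4.54, 4.85 and 4.85 on day 4, and 4.53, 4.47 and 5.05 on day 5. Every later array lay above the 3 controls, and the change was 0.86, 0.77, 1.21, 1.13 and 1.06 on days 1 to 5 (SE 0.21, adjusted p 0.00067 to 0.0082). Psma6 had the lowest mean change of the class, and its level was 5.88, 5.38 and 5.84 on day 0, 5.99, 6.20 and 6.29 on day 1, 6.06, 6.08 and 6.04 on day 2, 6.42, 6.40 and 6.25 on day 3, 6.16, 6.28 and 6.23 on day 4, and 6.13, 6.25 and 6.44 on day 5. The Psma6 arrays of every later day also lay above the controls, but the change of 0.46, 0.36, 0.66, 0.53 and 0.57 on days 1 to 5 (SE 0.15) did not pass the test on day 2 (adjusted p = 0.064). A second, dimmer Psma6 probe changed more, by 0.84, 0.92, 1.15, 1.26 and 0.95. Psma1, Psma3 and Psma7 passed on all 5 days, with changes between 0.55 and 1.33. Psma2 missed the threshold on day 1 (0.72, adjusted p = 0.051) and Psma4 on day 2 (0.29, adjusted p = 0.20).

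All 7 beta ring genes tested were higher on days 1, 3, 4 and 5, and 5 of 7 on day 2, with medians of 0.74, 0.71, 0.80, 1.09 and 0.90. The beta rings lie in the middle of the barrel and hold the cutting sites. Among the 3 active subunits, Psmb6 and Psmb7 had larger changes than Psmb5 on each day, a difference that was not tested. Psmb6, the caspase-like site, had a level of 2.09, 1.54 and 2.12 on day 0, 2.99, 3.06 and 2.94 on day 1, 2.77, 2.88 and 2.83 on day 2, 3.24, 3.07 and 2.96 on day 3, 3.28, 3.21 and 3.41 on day 4, and 3.00, 3.12 and 3.29 on day 5. Its lowest later array (2.77) lay above its highest control (2.12). The change was 1.08, 0.91, 1.17, 1.38 and 1.22 on days 1 to 5 (SE 0.16, adjusted p 0.00014 to 0.0013), and on day 4 this was 2.61-fold.

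Psmb7, the trypsin-like site, had a level of 2.03, 1.52 and 1.98 on day 0, 2.87, 2.99 and 2.88 on day 1, 2.55, 2.83 and 2.70 on day 2, 3.04, 2.99 and 2.96 on day 3, 2.96, 2.92 and 3.12 on day 4, and 3.01, 3.1 and 3.02 on day 5. The change was 1.07, 0.85, 1.16, 1.16 and 1.2 on days 1 to 5 (SE 0.15, adjusted p 0.00015 to 0.00099), with no overlap between the controls and any later array. Psmb5, the chymotrypsin-like site and the target of the drug bortezomib, had a level of 4.26, 3.70 and 4.21 on day 0, 4.60, 4.61 and 4.90 on day 1, 4.24, 4.28 and 4.32 on day 2, 4.57, 4.57 and 4.40 on day 3, 4.80, 4.67 and 4.69 on day 4, and 4.54, 4.95 and 4.56 on day 5. On day 2 its arrays overlapped the controls. The change was 0.65, 0.23, 0.46, 0.67 and 0.63 on days 1 to 5 (SE 0.17), past the threshold on days 1, 3, 4 and 5 (adjusted p 0.0043 to 0.032) and not on day 2 (0.28). Without replicate 4 of day 0 the day 3 change of Psmb5 was 0.29 and did not pass (adjusted p = 0.14).

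Psmb3 had the lowest mean change of the beta ring, with a level of 5.30, 4.88 and 5.18 on day 0, 5.50, 5.69 and 5.89 on day 1, 5.43, 5.30 and 5.32 on day 2, 5.77, 5.71 and 5.55 on day 3, 5.52, 5.64 and 5.66 on day 4, and 5.45, 5.64 and 5.83 on day 5. Its changes of 0.57, 0.23, 0.56, 0.48 and 0.52 on days 1 to 5 (SE 0.15) passed on all days but day 2, when its arrays overlapped the controls. The other beta subunits, which have no active site, were higher on all 5 days: Psmb2 by 0.71 to 1.17, Psmb1 by 0.74 to 1.23 and Psmb4 by 0.57 to 0.92. RefSeq lists 10 copies named after Psmb3, 8 of them pseudogenes. Whether its probe also reads such copies was not tested.

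**Figure D2:**
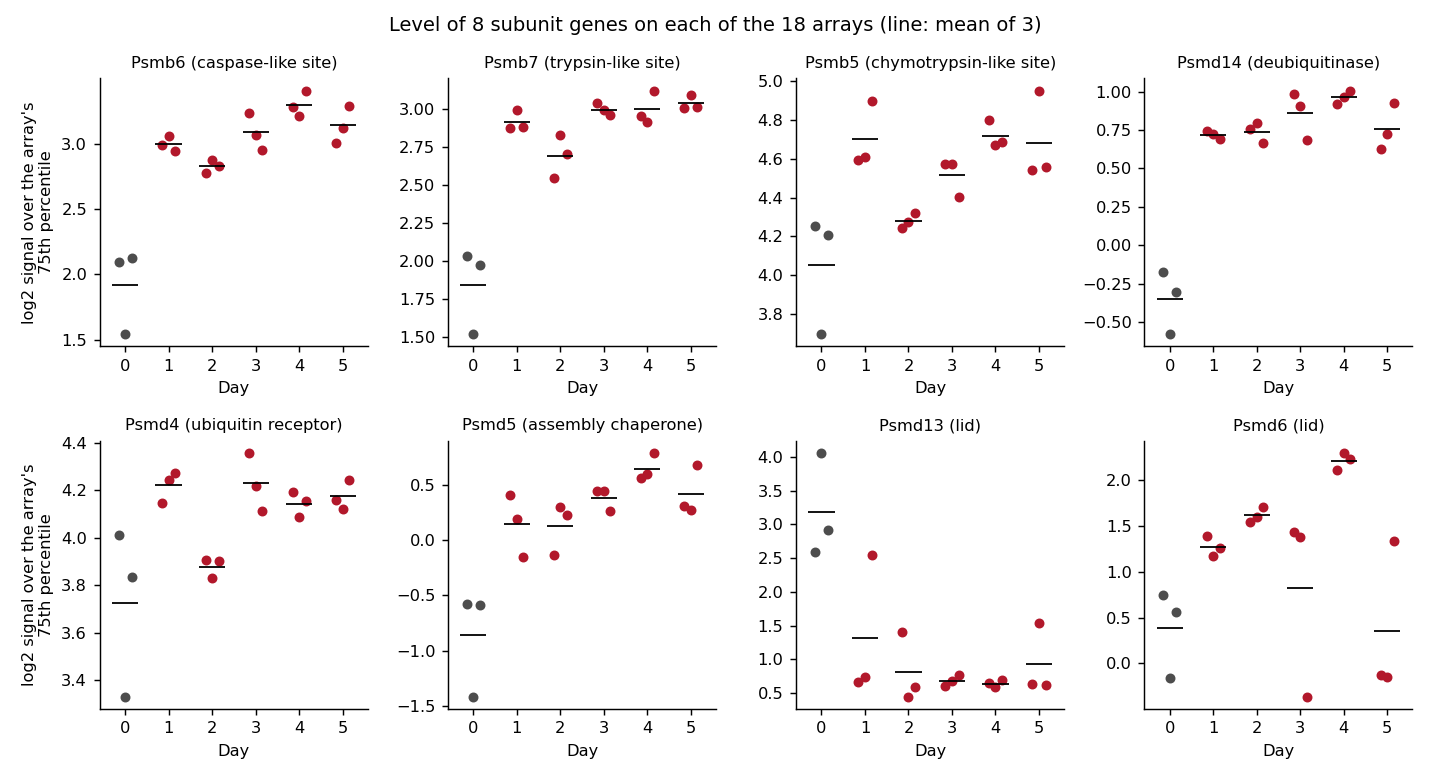
Each point is 1 array, with the day on the x axis, the log2 signal over the array's 75th percentile on the y axis, and a line at the mean of the 3 arrays. Day 0 (grey) lies below every later array (red) for Psmb6, Psmb7, Psmd14 and Psmd5 and above every later array for Psmd13, and Psmd6 splits on days 3 and 5.

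All 6 ATPase genes were higher on days 1, 3, 4 and 5, and 4 of 6 on day 2, with medians of 0.62, 0.41, 0.67, 0.75 and 0.64. These subunits form the ring that pulls the substrate into the core. Psmc6 had the highest mean change of the ring, with a level of 3.1, 2.43 and 2.96 on day 0, 3.54, 3.57 and 3.49 on day 1, 3.52, 3.67 and 3.58 on day 2, 3.80, 3.73 and 3.12 on day 3, 3.90, 4.13 and 4.15 on day 4, and 3.51, 3.41 and 3.79 on day 5. The change was 0.70, 0.76, 0.72, 1.23 and 0.74 on days 1 to 5 (SE 0.20, adjusted p 0.00036 to 0.014), and no later array overlapped the controls. Psmc5 had the lowest, with a level of 5.60, 5.03 and 5.57 on day 0, 5.96, 5.99 and 5.98 on day 1, 5.69, 5.77 and 5.71 on day 2, 6.03, 5.94 and 5.93 on day 3, 6.11, 5.98 and 6.04 on day 4, and 6.0, 6.0 and 5.94 on day 5. The change was 0.58, 0.32, 0.57, 0.64 and 0.58 on days 1 to 5 (SE 0.14), and day 2 did not pass (adjusted p = 0.081), although all of its arrays lay above the controls. Psmc1, Psmc3 and Psmc4 were higher on all 5 days, by 0.39 to 1.05. Psmc2 was higher by 0.55 to 0.72 on days 1, 3, 4 and 5, and its day 2 change of 0.29 did not pass (adjusted p = 0.092).

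The 11 other cap subunits were the most varied class. On days 1 to 5, 6, 6, 7, 8 and 7 of them were higher and 1, 2, 1, 1 and 1 lower, with medians of 0.51, 0.52, 0.59, 0.84 and 0.62. Psmd14, the lid enzyme that cuts the ubiquitin chain off the substrate, had the highest mean change. Its level was -0.17, -0.58 and -0.30 on day 0, 0.74, 0.73 and 0.69 on day 1, 0.75, 0.80 and 0.67 on day 2, 0.99, 0.90 and 0.68 on day 3, 0.92, 0.96 and 1.01 on day 4, and 0.63, 0.72 and 0.92 on day 5. The lowest later array (0.63) lay above the highest control (-0.17), and the change was 1.07, 1.09, 1.21, 1.31 and 1.11 on days 1 to 5 (SE 0.14, adjusted p 0.00011 to 0.00086). Psmd4, a ubiquitin receptor of the cap, had a level of 4.01, 3.33 and 3.84 on day 0, 4.15, 4.25 and 4.27 on day 1, 3.90, 3.83 and 3.90 on day 2, 4.36, 4.22 and 4.11 on day 3, 4.19, 4.09 and 4.15 on day 4, and 4.16, 4.12 and 4.24 on day 5. Its day 2 arrays overlapped the controls. Its changes of 0.49, 0.15, 0.50, 0.42 and 0.45 on days 1 to 5 (SE 0.16) passed on days 1, 3, 4 and 5 (adjusted p 0.015 to 0.035). Without replicate 4 of day 0, Psmd4 passed on no day (adjusted p 0.050 to 0.79).

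Psmd1 and Psmd2, the large scaffold subunits of the base, were higher on all 5 days, by 0.56 to 0.97 and by 0.52 to 0.89. Of the lid subunits, Psmd8 (0.44 to 0.89) and Psmd12 (0.51 to 0.89) were higher on all 5 days, and Psmd7 on days 3, 4 and 5 (0.88, 0.89 and 0.62). All 3 Psmd7 probes were positive on every day, and the dimmest of them had the largest changes (0.96, 1.40, 1.49, 1.88 and 1.08). Psmd11, a lid subunit, passed on no day, with changes of 0.14, -0.0038, 0.19, 0.17 and 0.20 (SE 0.12). Its signal lay between 1.71 and 1.95 in the controls.

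Psmd13, a lid subunit, was the only member lower on all 5 days. Its level was 2.59, 4.05 and 2.92 on day 0, 0.66, 0.74 and 2.55 on day 1, 1.41, 0.45 and 0.59 on day 2, 0.61, 0.68 and 0.77 on day 3, 0.65, 0.59 and 0.69 on day 4, and 0.64, 1.54 and 0.62 on day 5. All 15 later arrays lay below the 3 controls. Replicate 4 of day 0 was the highest array (4.05), and replicate 5 of day 1 (2.55) lay just under the lowest control (2.59). The other 2 arrays of day 1 read 0.66 and 0.74, and 10 of the 12 arrays of days 2 to 5 lay between 0.45 and 0.77. The change was -1.87, -2.37, -2.50, -2.55 and -2.25 on days 1 to 5 (SE 0.46, adjusted p 0.00063 to 0.0077), a fall of 5.84-fold on day 4. Without replicate 4 of day 0 the fall was smaller and still passed on each day (-1.44, -1.94, -2.07, -2.11 and -1.82, adjusted p 0.0042 to 0.048). The call was lost on days 1, 3 and 5 with slide as a fixed block (-2.53, -3.53 and -3.37), and on days 1 and 5 after normexp background correction (-1.87 and -2.20, adjusted p = 0.13 and 0.070). With only the 6 arrays of days 1 and 0 in the fit, the day 1 call was also lost (adjusted p = 0.061). Psmd13 has 1 probe on the array, the split probe printed above, so that no second probe bears on this change.

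Psmd3, another lid subunit, had a level of 1.18, 1.64 and 1.34 on day 0, 1.24, 1.12 and 1.27 on day 1, 0.76, 0.81 and 1.14 on day 2, 0.89, 0.65 and 1.30 on day 3, 1.18, 0.78 and 1.02 on day 4, and 1.14, 0.99 and 0.86 on day 5. Its changes were -0.18, -0.49, -0.44, -0.40 and -0.39 on days 1 to 5 (SE 0.19), and only day 2 passed (adjusted p = 0.044). That call was lost without replicate 4 of day 0 (-0.36, adjusted p = 0.16), without replicate 5 of day 0, without replicate 2 or 3 of day 2, and without single arrays of other days.

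Psmd6, also of the lid, had a level of 0.75, -0.16 and 0.57 on day 0, 1.39, 1.17 and 1.26 on day 1, 1.54, 1.59 and 1.71 on day 2, 1.44, 1.38 and -0.36 on day 3, 2.11, 2.29 and 2.23 on day 4, and -0.13, -0.15 and 1.34 on day 5. It was high on all day 4 arrays, and replicate 4 of day 3 with replicates 2 and 4 of day 5 lay below -0.1, near the lowest control (-0.16). These 3 low arrays lay on slide 3, which also held replicate 5 of day 5 (1.34). The changes were 0.89, 1.23, 0.43, 1.83 and -0.03 on days 1 to 5 (SE 0.44). Days 2 and 4 passed (adjusted p = 0.033 and 0.0034). Without replicate 4 of day 0 or without any 1 of the 3 arrays of day 2, the day 2 call was lost (adjusted p 0.058 to 0.15). Among the other genes of the cap, Adrm1, a ubiquitin receptor chosen here after its values were seen, was also low on slide 3: it read -2.53 on replicate 4 of day 3 and -2.68, -2.74 and -2.56 on day 5, against -1.38, -1.50 and -1.47 on day 4. The part of the slide in these values was not tested.

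Of the 3 assembly chaperones, 2 were higher on days 1, 2 and 3 and all 3 on days 4 and 5. Psmd5, which holds ATPases during assembly of the base, had a level of -0.58, -1.42 and -0.59 on day 0, 0.41, 0.20 and -0.15 on day 1, -0.14, 0.30 and 0.23 on day 2, 0.45, 0.45 and 0.26 on day 3, 0.56, 0.60 and 0.79 on day 4, and 0.31, 0.27 and 0.68 on day 5. All later arrays lay above the controls, and the change was 1.01, 1.00, 1.25, 1.51 and 1.28 on days 1 to 5 (SE 0.22, adjusted p 0.00024 to 0.005), the highest mean change of all members. Psmd9 was higher on all 5 days, by 0.46 to 0.78. Psmd10, also known as gankyrin, had a level of 2.50, 1.82 and 2.40 on day 0, 1.93, 2.12 and 2.16 on day 1, 2.03, 1.99 and 2.28 on day 2, 2.54, 2.53 and 2.34 on day 3, 2.64, 3.02 and 2.83 on day 4, and 2.61, 2.71 and 3.07 on day 5. Its arrays of days 1, 2 and 3 overlapped the controls, and its changes were -0.18, -0.14, 0.23, 0.58 and 0.55 on days 1 to 5 (SE 0.19), past the threshold on days 4 and 5 (adjusted p = 0.018 and 0.028). Both calls were lost without replicate 4 of day 0 (0.37 and 0.34, adjusted p = 0.084 and 0.13). Without replicate 2 of day 4 the day 4 change was 0.49 (adjusted p = 0.073), and without replicate 5 of day 5 the day 5 change was 0.41 (adjusted p = 0.12).

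The core and the cap were compared through the change of their members. The 14 core genes had medians of 0.75, 0.65, 0.95, 1.01 and 0.87 on days 1 to 5, and the 17 cap genes, without the assembly chaperones, 0.58, 0.44, 0.61, 0.77 and 0.62. The core median exceeded the cap median by 0.18, 0.20, 0.34, 0.24 and 0.25. On days 3, 4 and 5 all 14 core genes were higher, against 13, 14 and 13 of the 17 cap genes. On each array the mean over the core minus the mean over the cap was set against its day 0 mean. This difference rose by 0.31 ± 0.07, 0.32 ± 0.04, 0.46 ± 0.03, 0.37 ± 0.11 and 0.47 ± 0.10 (SD, n = 3), and ranged from -0.13 to 0.07 on the controls. All 15 later arrays, at 0.24 or above, lay above the controls.

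Part of that mean difference came from Psmd13. Without it, the difference was 0.17 ± 0.09, 0.16 ± 0.02, 0.27 ± 0.02, 0.17 ± 0.11 and 0.30 ± 0.10, and ranged from -0.06 to 0.04 on the controls. The lowest later array was then at 0.05, on day 4. No test was made of these scores, because the members were chosen with results of these arrays known. The scaling between arrays cancels in a difference within an array where it shifts all genes by the same amount, as the 75th percentile, the median and the reference genes do.

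**Figure D3:**
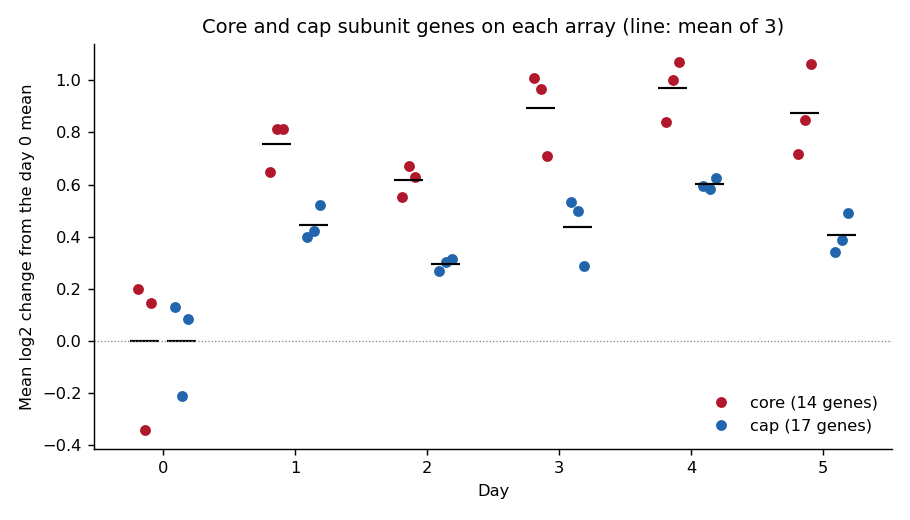
Each point is 1 array, with the day on the x axis and, on the y axis, the mean log2 change of the 14 core genes (red) or the 17 cap genes (blue) from their day 0 means, and a line gives the mean of 3 arrays. On each later day the core means lie above the cap means, and on day 0 replicate 4 gives the lowest point of both.

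Few differences between the later days passed the test. In 9 of the 10 contrasts between days 1 to 5 no member did under the 75th percentile. Under cyclic loess 1 member was higher in each of day 4 minus day 1 and day 5 minus day 2 (1.64% and 1.95% of all genes). Under reference genes 1 was higher in the second of these (1.41% of all genes). Under the 75th percentile Psmd6 was lower on day 5 than on day 4, with a difference of -1.86 (SE 0.44, limma adjusted p = 0.035), where 2.06% of all genes were lower. Of all genes, in either direction, 0.388% passed for day 2 minus day 1, 0.00431% for day 3 minus day 1, 1.75% for day 4 minus day 1 and 0.121% for day 5 minus day 1. The shares were 0.323%, 0.0991% and 3.63% for days 3, 4 and 5 minus day 2, 2.99% and 0.00862% for days 4 and 5 minus day 3, and 2.78% for day 5 minus day 4.

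At an unadjusted p under 0.05, 15 members were higher on day 4 than on day 2, both of scan day 2, where 7.83% of all genes were. That count fell to 10, 5, 7 and 1 under the array median, quantile normalization, cyclic loess and reference genes, where 7.08%, 5.83%, 7.16% and 2.17% of all genes were higher. The median difference was 0.34. On 28 of 34 members all day 4 arrays lay above all day 2 arrays, where 15% of all genes did. Under the same 4 scalings the count without overlap was 29, 16, 19 and 11, against 15.8%, 12.8%, 12.6% and 4.46% of all genes, and the median difference was 0.37, 0.18, 0.18 and 0.11.

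Day 3 minus day 2, which were scanned apart, had a median of 0.28 over the members, with 10 higher at an unadjusted p under 0.05 (5.35% of all genes) and 22 of 34 without overlap (12.8% of all genes). Within scan day 1, day 3 minus day 1 had a median of 0.09 and day 5 minus day 3 one of 0.0074. No member had an unadjusted p under 0.05 in either, where 13.7% and 13.2% of all genes did in either direction. This holds for the 75th percentile and the array median. For day 3 minus day 1, 5, 6 and 6 members were higher under quantile normalization, cyclic loess and reference genes. The shares of all genes were 6.5%, 8.18% and 8.06%. For day 5 minus day 3, 2 members were lower under cyclic loess, where 8% of all genes were. Day 5 minus day 1 had a median of 0.09, and 1 member, Psmd10, was higher at that threshold (0.73, adjusted p = 0.19), where 4.04% of all genes were. On day 2, 4 members were lower than on day 1 (8.24% of all genes), and on day 5, 4 were lower than on day 4 (8.46%). On day 4, 4 were higher than on day 3 (11.6%) and 8 higher than on day 1 (9.6%). On day 5, 10 were higher (10.4%) and 1 lower (9.72%) than on day 2. The direction of day 4 against days 3 and 5 turned with the scaling. Under reference genes 1 member was higher (5.25% of all genes) and 7 lower (19.3%) on day 4 than on day 3. The median there was -0.16 over the members and -0.18 over all genes. For day 5 minus day 4, 4 members were higher (17.6% of all genes) and 1 lower (5.08%). The medians were 0.12 over the members and 0.20 over all genes.

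The size of the change against day 0 depended on how the arrays were scaled. With the array median in place of the 75th percentile, the change of all genes had a median of 0.37 to 0.49 over the days. Under that scaling 31, 31, 31, 32 and 31 members were higher, where 35.6%, 39.1%, 37.9%, 42% and 41.3% of all genes were. With 12 reference genes such as Actb and Ppia, all genes had a median of -0.54 to -0.32. Then 7, 6, 17, 13 and 13 members were higher, against 4.96%, 8.42%, 10.5%, 7.14% and 6.56% of all genes, and 3, 4, 2, 3 and 2 were lower, against 37.5%, 37.2%, 40.4%, 48.7% and 37.3%. Quantile normalization gave 14, 11, 17, 18 and 13 higher, against 18.8%, 22.4%, 23%, 25.3% and 20.7% of all genes. Cyclic loess, which removes trends with brightness, gave 8, 6, 15, 16 and 11, against 13.6%, 18.4%, 20.1%, 21.5% and 15.2%, so that on day 2 the 6 of 34 members were near the share of all genes. The median change of the members stayed above 0 under all 5 scalings on each day, and lay between 0.17 and 0.91 on day 2 and between 0.29 and 1.30 on day 4. The members' median lay above that of all genes in each case. With slide as a fixed block, 1 array alone joins the controls to the other slides. In that fit no member passed the adjusted threshold on days 1, 3 and 5, and 0, 1 and 1 of all genes did. After normexp background correction 0, 2, 2, 9 and 0 members were higher, against 0.0388%, 2.38%, 3.34%, 5.56% and 0.0129% of all genes.

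Under all 5 scalings at once, 7, 6, 15, 13 and 11 members were higher on days 1 to 5, where 4.78%, 8.31%, 10.1%, 7.1% and 5.62% of all genes were, and Psmd13 was lower on each day. Psmb6, Psmb7, Psmd14 and Psmd5 were higher on all 5 days under all of them. Their lowest values over scalings and days were 0.54, 0.48, 0.63 and 0.58. Psmb2 was higher on 4 days in this sense, and Psma1, Psma5, Psma7, Psmd1, Psmd2 and Psmd8 on 3. For 15 members, Psmd13 among them, there was no such day. When replicate 4 of day 0 was left out as well, 4, 4, 12, 10 and 6 members were higher under all 5 scalings, where 2.6%, 5.08%, 7.4%, 4.77% and 3.04% of all genes were. Psmb6, Psmb7 and Psmd14 were then higher on all 5 days, Psmd5 on 3, and Psmd13 was lower on days 2 to 5.

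**Figure D4:**
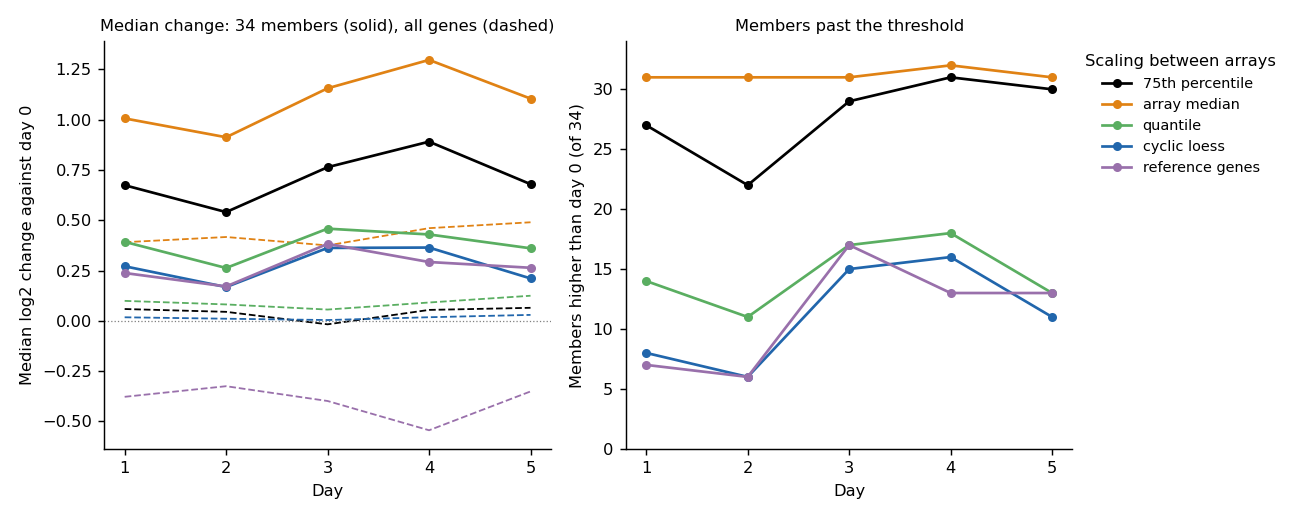
The left panel gives the median log2 change against day 0 on days 1 to 5 for the 34 members (solid) and for all genes (dashed) under 5 scalings between arrays, and the right panel the number of members higher than day 0 by limma. The members' line lies above the line of all genes in the same colour on every day, while the count on day 2 ranges from 6 to 31.

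Some properties of the probes were set beside the changes. Over the 34 members, the mean change over 5 days had a Spearman correlation of -0.21 with the GC content of the probe (35% to 55%) and of -0.14 with its mean level, as a description over probes of the same arrays. The 17 brighter members had a median of 0.60 and the 17 dimmer ones of 0.75. The 14 members whose probe was split over a gap in the genome had a median of 0.86 (from -2.31 to 1.16), and the 20 others of 0.62 (from -0.38 to 1.21). Of the 7 members with more than 1 probe, Psma3, Psma6, Psmc4, Psmc6, Psmd1, Psmd2 and Psmd7, all probes changed in the positive direction on all 5 days. The second Psmd2 probe changed less than the first (0.46, 0.15, 0.44, 0.26 and 0.44). RefSeq lists 39 copies, 36 of them pseudogenes, named after 15 of the members, and their part in the signal was not tested.

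The choice of members leaves out the immunoproteasome subunits, and no test was made of the difference between them and the members. All 3 were higher on day 3, with changes of 2.16 for Psmb8, 1.83 for Psmb9 and 1.48 for Psmb10 (adjusted p = 0.0033, 0.0032 and 0.00098). Psmb10 was also higher on days 1 and 2 (1.05 and 0.81), and Psmb8 and Psmb9 did not pass on these days (1.2 and 1.15, and 0.80 and 0.86). On days 4 and 5 none of the 3 passed (0.48 to 1.05). Psmb8 read 0.65, 2.34 and 2.27 on day 4 and 1.67, 1.22 and 3.21 on day 5, against 1.00, 1.23 and 0.71 on day 0. The arrays of days 4 and 5 were therefore split, with replicate 1 of day 4 low and replicate 5 of day 5 high.

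Within arrays, Psmb8 gained on its constitutive counterpart Psmb5 by 0.55, 0.92, 1.69, 0.10 and 0.42 on days 1 to 5. Psmb9 changed against Psmb6 by -0.28, -0.05, 0.66, -0.91 and -0.33, and Psmb10 against Psmb7 by -0.02, -0.04, 0.32, -0.59 and -0.60. All 3 of these changes were above 0 on day 3. Over the arrays, Psmb8 minus Psmb5 was then -1.44 to -1.29, against -3.49 to -2.47 on day 0. The other pairs overlapped the controls. Psmb9 minus Psmb6 was 1.62 to 2.06 on day 3 against 0.74 to 1.73 on day 0. Psmb10 minus Psmb7 was 2.06 to 2.34 against 1.70 to 2.24. No test was made of these differences.

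**Figure D5:**
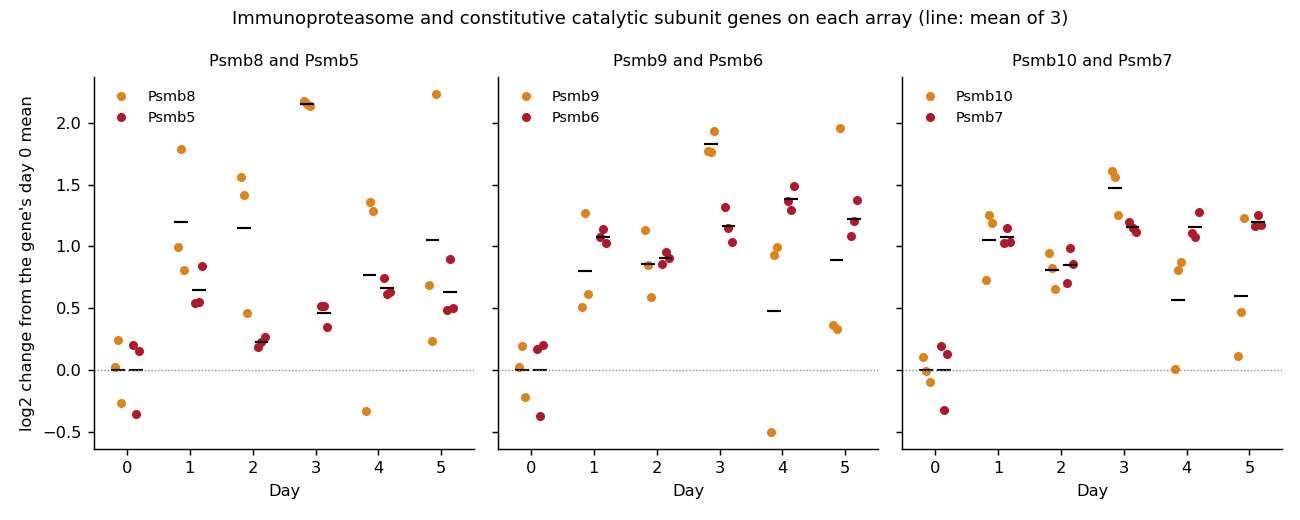
Each point is 1 array, with the day on the x axis and the log2 change from the gene's own day 0 mean on the y axis, for each immunoproteasome subunit (orange) and the constitutive subunit it replaces (red), and a line gives the mean of 3. The orange means are highest on day 3, the orange points spread on days 4 and 5, and the red points of Psmb6 and Psmb7 stay between 0.70 and 1.49 on every later day.

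Other genes of the pathway were taken as lists by function. The assembly factors of the core were higher throughout: all 4 tested on days 1, 3, 4 and 5 and 3 of 4 on day 2, with a median of 0.58 to 0.81. Psmg2, which helps to build the alpha ring, was higher by 0.61, 0.80, 0.88, 1.23 and 0.94, and Psmg4 and Psmg1 by 0.59 to 0.93 and 0.42 to 0.72. Of the 5 activators and inhibitors, 3, 4, 3, 4 and 3 were higher on days 1 to 5. Psme1 and Psme2, the subunits of an activator that interferon gamma induces, rose by 0.60 to 1.04 and by 1.09 to 1.74, and Psme3, a nuclear activator, by 0.53 to 0.77. Of 5 further cap genes, 4, 3, 3, 5 and 3 were higher, among them Sem1 (0.47 to 0.80), the deubiquitinase gene Uchl5 (0.46 to 0.76) and, on 4 days, the deubiquitinase gene Usp14 (0.43 to 0.82).

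Of 6 genes tested for the transcription of proteasome genes and its activation, 2, 2, 2, 2 and 1 were higher and 1 was lower on each day. Ngly1 and Ddi2, which activate the factor Nrf1 in other species, went in opposite directions: Ngly1 was higher by 0.60 to 1.02, and Ddi2 changed by -1.46, -1.50, -1.73, -1.71 and -1.60. Nfe2l1, the gene of Nrf1 itself, was listed but not found under that name on the array. Nfe2l2, the factor Nrf2 of the oxidative stress response, was higher on days 2, 3 and 4 (1.07, 0.79 and 1.17). Of 13 genes that supply ubiquitin or deliver substrates, 6, 6, 4, 6 and 5 were higher and 2 were lower on each day. Rad23b, a shuttle for ubiquitylated proteins, was higher by 0.56 to 1.12. The 2 lower genes were the shuttle Ubqln2 (-0.72 to -1.34) and Nploc4, a cofactor of the segregase Vcp (-1.72 to -2.28), which was well above background on 16 arrays.

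The chaperonin TRiC, a folding machine of cytosol taken for comparison, was higher as well. Of its 8 subunits 8, 7, 8, 8 and 8 were higher, with medians of 0.69, 0.66, 0.89, 1.03 and 0.82, among them Cct4 (0.98 to 1.44), Cct5 (0.80 to 1.27) and Tcp1 (0.70 to 1.32). Whether the proteasome and TRiC genes differ was not tested.

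Markers of cell types moved over the same days. Of 11 macrophage markers tested, 7, 9, 10, 5 and 2 were higher, with summed signals of 214.3 to 296.6, 198.7 to 324.8, 391.5 to 470.6, 80.9 to 223.1 and 64.4 to 315.8 on days 1 to 5, against 52.1 to 93.3 on day 0 (in units of the array's 75th percentile). Of 7 lymphocyte and NK cell markers 2, 4, 6, 0 and 0 were higher, with sums of 6.8 to 18.4, 8.7 to 16.4, 11.3 to 29.3, 3.12 to 10 and 5.02 to 15.3, against 3.02 to 6.51. Of 10 genes of dividing cells 0, 9, 9, 5 and 0 were higher and 1 was lower on day 1, with sums of 6.02 to 7.13, 17.1 to 36.3, 22.5 to 39.8, 4.68 to 22.8 and 3.37 to 28, against 5.51 to 9.43.

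Of 6 mesangial markers 4, 2, 1, 1 and 1 were lower, with sums of 7.27 to 14.1, 7.02 to 9.75, 12.7 to 13.8, 10.2 to 17.6 and 12.9 to 20.4, against 9.64 to 13.7. Of 7 endothelial markers 4, 3, 3, 5 and 4 were lower and 1 was higher on day 3, with sums of 108.1 to 140.0, 123.2 to 220.6, 185.9 to 227.2, 60.9 to 93.3 and 111.6 to 133.6, against 139.1 to 182.8. Of 8 podocyte markers 1, 1, 1, 2 and 2 were lower and 2 were higher on day 5, with sums of 330.7 to 394.7, 351.9 to 396.5, 338.1 to 400.2, 328.7 to 382.6 and 392.4 to 529.6, against 296.8 to 381.2. Of 9 tubule markers 1 was lower on each day, with sums between 384.7 and 718.1 on the later days, against 415.4 to 669.9. The listed macrophage marker Cd163 did not pass the filter on dim probes and was not tested. Of the markers tested, Aurkb of the dividing cells was well above background on 11 arrays and Cd2 of the lymphocytes on 16. On day 5, replicate 5 had the highest macrophage sum (315.8, against 96.6 and 64.4 on replicates 2 and 4), the highest sum of dividing-cell genes (28.0, against 3.37 and 7.13) and the highest mean change of the members (0.77, against 0.52 and 0.61). On day 4, replicate 1 was lowest in all 3 measures (80.9, 4.68 and 0.71). On day 3, replicate 4 had the highest macrophage sum (470.6), but the lowest dividing-cell sum (22.5) and mean change (0.49). Replicate 3 of day 2 had the highest macrophage sum (324.8) and mean change (0.47). Replicate 2 of day 2 had the highest dividing-cell sum (36.3) and the lowest mean change (0.39). Replicate 5 of day 1 had the lowest macrophage sum (214.3) and the highest mean change (0.63). The part of the cell types in the change of the proteasome genes was not tested.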

How the data were processed

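The 36 member genes and all gene lists were chosen with earlier results of these data known. Each sample was 1 array, 3 for each of the 6 days. Per the file headers, the deposited intensity values come from Agilent Feature Extraction 10.7.3.1, run with background subtraction and detrending within an array. Mean and background intensities from the same files served an alternative correction. The log2 values in the authors' deposited series matrix rank the probes of each array as the processed intensity does. Their column medians are 5.49 for days 0, 2 and 4 and 5.31 for days 1, 3 and 5. How they were scaled and centred is not stated, so they were used only as an alternative, between days of equal median.

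The processed intensity was taken to log2 and each array's 75th percentile over its non-control spots subtracted. Control spots and 80 to 142 flagged outlier spots an array were removed, and repeated spots averaged. A probe was kept if it was well above background on all 3 arrays of at least 1 day (27833 of 41012). Probes were named by RefSeq accession (18028), symbol (3170) or older symbol (400) from a RefSeq gene list of build GRCr8, and 19414 kept their name in the file. The brightest probe stood for a gene. All 18 arrays were fitted in 6 groups with limma 3.58.1 (lmFit, eBayes) in R 4.3.3, and p-values were adjusted by Benjamini-Hochberg over 23201 genes, with a threshold of 0.05. The number of arrays limits the precision: arrays of a day correlated at 0.952 to 0.989 across the tested genes, each read through its brightest probe. On simulated data for day 3 minus day 0, with 23201 genes, the fit called 26% of 50 genes raised by 1 (log2). It called 2% of 50 raised by 0.5, 38% of 50 lowered by 1 and 0% of 50 lowered by 0.5. No other genes were changed there, while in the data 21.7% of all genes were higher and 26% lower on day 3. The adjusted threshold is stricter where fewer genes change, so these shares do not give the power of the fit to the data.

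Full values are given for Psmb5, Psmb6, Psmb7, Psmd4 and Psmd14, for the members with the highest and lowest mean change of each class, and for any member called lower. From each list, up to 3 genes that passed on the most days are named. Values of Psmd6 and Adrm1 were added after they were seen. The alternatives were other scalings and background correction, no filter on dim probes, the mean of all probes, only the arrays compared, slide and replicate blocks, the deposited log2 values, and each array left out. Promoters and proteins were not analysed here.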

Additional observations from a re-analysis of the deposited data

Results flagged for a closer look

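Psmd6, a lid subunit, differed between 2 later days by the test of that difference itself. Its change on day 5 minus day 4 was -1.86 (SE 0.44, limma adjusted p = 0.035), with -0.13, -0.15 and 1.34 on the day 5 arrays and 2.11, 2.29 and 2.23 on the day 4 arrays. All 3 arrays of day 5 lay below those of day 4. Under the 5 scalings the difference was -1.86 to -1.68 and passed the threshold in each (adjusted p 0.030 to 0.049). Leaving out 1 array of these days gave -2.35 to -1.61 with an adjusted p of 0.013 to 0.15, and the call was lost without each of these arrays except replicate 5 of day 5. Days 4 and 5 shared neither a scan day nor a slide, so these and the day cannot be told apart.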

How the results depend on the processing

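The number of members higher than day 0 on days 1 to 5, which was 27, 22, 29, 31 and 30, kept within 1.5 times of these values under scaling to the array median, without the filter on dim probes, with the mean of all probes, with slide as a random block and with the replicate block. It was 14, 11, 17, 18 and 13 after quantile normalization (18 by the F-test, and a core minus cap difference of 0.25 on day 3), against 18.8% to 25.3% of all genes higher. It was 7, 6, 17, 13 and 13 after scaling to reference genes (17 by the F-test), against 4.96% to 10.5% of all genes, and 8, 6, 15, 16 and 11 after fast cyclic loess (19), against 13.6% to 21.5%, with day 2 (6 of 34) near its 18.4%. It was 0, 2, 2, 9 and 0 after normexp background correction (4 by the F-test, core minus cap 0.34 on day 5), against 0.0129% to 5.56%. After normexp the log2 75th percentile was 10.3 on replicate 1 of day 1 and 10.2 on replicate 5 of day 5, against 7.94 to 9.01 on the other arrays. With only the 6 arrays of the days compared it was 4, 13, 19 and 12 on days 1, 2, 3 and 5, against 6.22%, 14.9%, 14.4% and 6.05%. With the deposited log2 values it was 8 on day 2 and 16 on day 4, against 18.9% and 22.2%. The share of all genes that passed the F-test under these alternatives is not given here. Under the 75th percentile it was 53%.

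With slide as a fixed block, limma called 0 members on days 1, 3 and 5 at the adjusted threshold, and 0, 1 and 1 of all genes. Core minus cap was 0.14 on day 3. In that fit 1 array of day 1 alone joins the controls to the other slides. The cause of the other shifts was not tested.

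Leaving out each array in turn gave 21 to 29 members on day 1, 12 to 26 on day 2, 25 to 30 on day 3, 28 to 31 on day 4, 25 to 30 on day 5, and 29 to 32 by the F-test. The lowest count was that without replicate 4 of day 0, matched without replicate 2 of day 3 on day 3, without replicate 5 of day 5 on day 5 and without replicate 5 of day 0 in the F-test. Without replicate 3 of day 2, 13 were higher on day 2. Of these fits, only that without replicate 4 of day 0 has its shares of all genes given above, for the counts by day. Core minus cap ranged from 0.10 to 0.19, 0.18 to 0.23, 0.23 to 0.35, 0.17 to 0.34 and 0.19 to 0.29 on days 1 to 5.

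Single members turned sign in some fits. On day 4 after quantile normalization Psma6 was at -0.051, Psmb3 at -0.041 and Psmd4 at -0.0033, and in the deposited log2 values at -0.056, -0.046 and -0.00699. After scaling to reference genes Psma6 was at -0.073, Psmb3 at -0.11, Psmd10 at -0.014, Psmd4 at -0.18 and Psmd9 at -0.013 on day 4, and Psmd11 at -0.43 (adjusted p = 0.020). After cyclic loess Psma6 was at -0.029 on day 1 and -0.058 on day 4, Psmb3 at -0.087 and -0.013 on days 4 and 5, and Psmd4 at -0.12 and -0.056. Scaling to the array median put Psmd11 at 0.37 on day 2 (adjusted p = 0.033).

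The labels do not say that equal replicate numbers pair arrays of different days. In their deviations from the day means, 27 pairs with equal numbers correlated at -0.38 to 0.28 (median -0.02), and 8 exceeded 0.1. The 108 pairs with unequal numbers correlated at -0.66 to 0.54 (median 0.003), and 37 exceeded 0.1. These values cannot exclude a pairing. With the replicate block 26, 16, 28, 30 and 29 members were higher and 25 passed the F-test. The shares of all genes in that fit are not given here, so these counts describe the members alone. Dim members have the least room above background; Psma8 and Psmb11 could not be tested.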

Other observations

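3 genes of other lists had the same highest control and highest later array as Psmd13, the member that fell on all 5 days. Ddi2, a protease that activates the proteasome's transcription factor in other species, read 3.29 on replicate 4 of day 0 and 1.37 on replicate 5 of day 1, the highest control and the highest later array, as for Psmd13 (4.05 and 2.55). Nploc4 read -0.96 and -2.77 on these arrays, and Synpo, an actin-binding protein of podocytes, 2.25 and 0.53, again the highest control and the highest later array. They were picked after their values were seen, and no test was made of the likeness.

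Slides that held arrays of 2 days gave differences with no slide between them, with no test. On slide 1, replicate 1 of day 1 minus the 3 controls had a median of 0.58 over the 34 members, with 31 above 0, against a median of 0.09 and 53.8% above 0 over all genes; Psmb6 was at 1.07, Psmd14 at 1.09 and Psmd13 at -2.53. On slide 2, 2 arrays of day 3 minus 2 of day 1 had a median of 0.16, with 28 members above 0, against -0.07 and 44.1% over all genes. On slide 3, the 3 arrays of day 5 minus replicate 4 of day 3 had a median of 0.09, with 28 above 0, against 0.06 and 57.3% over all genes. On slide 4, replicate 1 of day 4 minus the 3 arrays of day 2 had a median of 0.29, with 32 above 0, against 0.09 and 58.4% over all genes. The differences on slides 1, 3 and 4 thus rest on 1 array on 1 side.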
